A study of Mus musculus with 21 samples.

Results

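The 10 genes described here, which mark or maintain the nephron progenitors of the mouse kidney, were followed through ribosome-bound and total RNA at embryonic day (E) 14.5. The members are Six2, Cited1, Eya1, Osr1, Wt1, Sall1, Meox1, Gdnf, Pax2 and Pax8, taken by symbol from a list with no threshold on their values. This list and the other gene lists were chosen with earlier results of these data known. All 10 of 10 were found, each on a single row, among the 23827 rows (23351 different symbols) that every sample lists.

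The 21 samples form 7 groups of 3. The kidney transcriptome and translatome, and the forebrain transcriptome and translatome, came from Sox2Cre+/-;Gt(ROSA)26Sor-mCherry-Rpl10a+/- embryos. In these, the ribosomal protein Rpl10a tagged with mCherry is switched on in all cells of the embryo proper, and RNA on tagged ribosomes (the translatome) was pulled down beside total RNA (the transcriptome). The kidney and forebrain endothelial cell (EC) translatomes came from Cdh5CreERT2+/-;Gt(ROSA)26Sor-mCherry-Rpl10a+/- embryos, whose Cre is driven by the endothelial gene Cdh5 and activated by giving tamoxifen. The Emx1-lineage translatome came from Emx1Cre+/-;Gt(ROSA)26Sor-mCherry-Rpl10a+/- forebrains and covers cells of the dorsal telencephalon and their descendants. All groups share the tag at 1 copy of the ROSA26 locus, driven by the CAGGS promoter and derived from a single embryonic stem cell clone, and organs of more than 1 embryo could be combined in a sample. The forebrain dissection also took part of the diencephalon.

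Nephron progenitors are the mesenchymal cells that cap each tip of the branching ureteric bud. They renew themselves under a set of transcription factors, secrete the ligand Gdnf, which makes the bud grow and branch through the receptor Ret and its co-receptor Gfra1, and in turn receive bud signals that send some of them into nephron formation. Six2 keeps the cap cells undifferentiated, Cited1 is a transcriptional co-regulator of the least committed cap cells, and Eya1 is a coactivator that works with Six2 and its relatives. Osr1, Sall1 and Wt1 encode zinc finger factors and Meox1 a homeobox factor, while Pax2 and Pax8 are paired box factors of the early kidney lineage. Wt1 is also a podocyte gene, Pax2 is also active in the ureteric bud, and Pax8 continues into early nephrons.

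In the GENCODE vM21 annotation of GRCm38, the build of the files, Six2 lies on the minus strand at chr17:85684277-85688274, Cited1 on the minus strand at chrX:102247381-102252181 and Eya1 on the minus strand at chr1:14168954-14310235. Osr1 is on the plus strand at chr12:9570116-9581500, Wt1 on the plus strand at chr2:105126529-105173616 and Sall1 on the minus strand at chr8:89027235-89044162. Meox1 is on the minus strand at chr11:101877510-101894374, Gdnf on the plus strand at chr15:7810846-7837575, Pax2 on the plus strand at chr19:44756045-44837871 and Pax8 on the minus strand at chr2:24420560-24475599. The spans of Eya1, Osr1, Meox1, Pax2 and Pax8 are each overlapped by a gene on the opposite strand. The library kit did not mark strand, so any reads of such a gene on the counted exons cannot be separated. Whether the overlap reaches those exons was not examined.

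The 250 bases before the RefSeq start (GRCm38.p6) are shown for Six2 and Pax8, the members with a single listed start, whose ratios of ribosome-bound to total kidney RNA lie on opposite sides of 1; 6 of the 10 members had such a window. Capitals mark matches to CCAAT or GGGCGG on either strand, the only capitals used.
Six2, chr17:85688255-85688504, minus strand: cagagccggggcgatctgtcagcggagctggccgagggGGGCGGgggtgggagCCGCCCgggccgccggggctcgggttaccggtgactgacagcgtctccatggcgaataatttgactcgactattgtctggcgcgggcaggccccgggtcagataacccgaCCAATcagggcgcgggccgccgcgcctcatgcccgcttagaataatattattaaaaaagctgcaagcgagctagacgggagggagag
Pax8, chr2:24475600-24475849, minus strand: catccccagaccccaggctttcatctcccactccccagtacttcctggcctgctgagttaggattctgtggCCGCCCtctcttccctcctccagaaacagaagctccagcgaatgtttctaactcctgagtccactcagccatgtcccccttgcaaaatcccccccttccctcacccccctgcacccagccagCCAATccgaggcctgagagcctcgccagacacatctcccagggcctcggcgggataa
The Six2 window held CCAAT once and GGGCGG at 2 places, and the Pax8 window held each of them once. Over 32851 windows of the same length in the genome, CCAAT occurred in 33.8% and GGGCGG in 32.7%, so both patterns are common. TATAAA was in 12.4% of all windows and in neither of the 2 windows shown. These are matches of letters only.

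Between 21760652 and 79231692 reads were counted on genes per sample, with the fewest in the kidney translatome (21760652 to 24605124). The cell populations matched their labels in direction, but other cells remained: the summed RPKM (read counts scaled to transcript length and library size) of 7 endothelial markers was 1794 to 2110 in kidney EC against 333 to 356 in the whole kidney translatome. In the same kidney EC samples, 6 stromal markers still summed to 59.6 to 82.6 RPKM, against 243.8 to 304.3 in the whole kidney. In forebrain EC the endothelial markers summed to 1836 to 1902 RPKM against 101 to 115, and 7 forebrain neural markers to 354 to 470 against 1919 to 1953. The EC and Emx1-lineage libraries were sequenced in other runs than the whole-organ translatomes, so run, Cre driver and, for EC, tamoxifen cannot be told apart from the cell population. Kidney translatome samples 1 and 2 shared a run with forebrain transcriptome samples 2 and 3. Neurod6, a factor of forebrain neurons, had 21 and 20 reads in those kidney samples and 1 read in sample 3, which was sequenced elsewhere. In forebrain transcriptome samples 2 and 3 against sample 1, Wt1 had 17 and 7 reads against 3, Pax2 21 and 33 against 3, Gdnf 30 and 20 against 9 and Pax8 13 and 11 against 9. Scaled to library size, Pax8 was level (0.09 and 0.09 against 0.08 RPKM). Pax2 and Gdnf in sample 2 (0.12 and 0.15 RPKM) were above sample 1 (0.023 and 0.06 RPKM). Both were within the range of the forebrain translatomes, another RNA fraction, which share no run with kidney (0.09 to 0.14 and 0.08 to 0.16 RPKM). Gdnf in sample 3 (0.11 RPKM) was also above sample 1 and within that range. Pax2 in sample 3 (0.213 RPKM) was above that range and above sample 1 (0.023 RPKM). Wt1 in samples 2 and 3 (0.097 and 0.044 RPKM) was above sample 1 (0.023 RPKM) and above the forebrain translatomes (0.021 to 0.035 RPKM). The part of the shared run in these low reads was not tested.

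**Figure D1:**
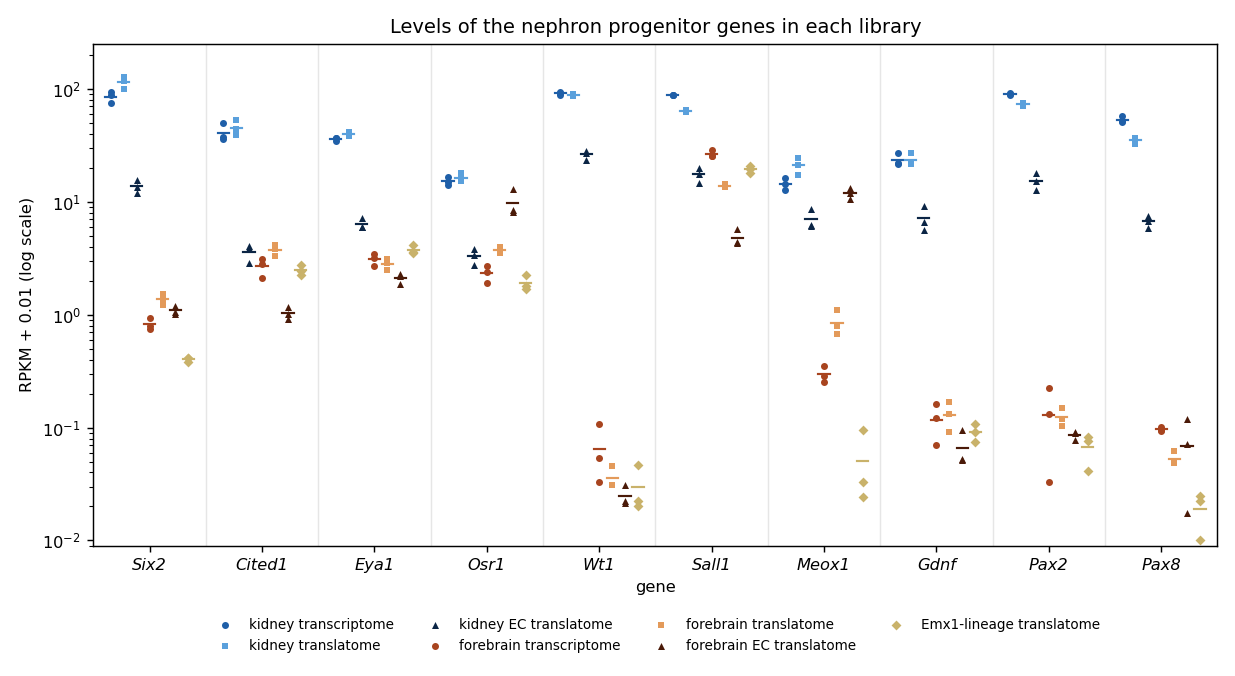
Level of each nephron progenitor gene (x axis) as RPKM plus 0.01 on a log axis, in 21 libraries of 7 groups; each point is a library and each short line the mean of 3. The kidney transcriptome and translatome points lie above all forebrain points for every gene but Meox1, whose kidney transcriptome (12.65 to 16.1 RPKM) and forebrain EC (10.66 to 13.11 RPKM) points overlap, while Osr1 and Meox1 are the genes whose forebrain EC points lie above kidney EC.

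All 10 genes were higher in the kidney than in the forebrain, in ribosome-bound and in total RNA. Wt1, Pax2, Pax8 and Gdnf were close to absent from the forebrain, whereas Sall1 was shared between the organs. In the translatome, 26.2% of the 19238 rows tested were called higher in kidney and 27.2% lower at an adjusted P under 0.001, so 10 of 10 called higher stands against that share. In total RNA the background was 26.3% higher and 27.2% lower, and again 10 of 10 members were called higher. The samples of the organs did not overlap for any member in either comparison. The share of all rows without such overlap is not reported here. The median log2 fold change of the members was 5.33 in the translatome and 5.97 in the transcriptome, where the median over all rows was 0.01 and 0.02. In bulk organs, fewer cells of a type and less RNA per cell cannot be told apart.

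Gdnf, the secreted ligand, stood at 21.8, 27.2 and 21.98 RPKM in the 3 kidney transcriptomes and at 22.1, 27.2 and 21.5 RPKM in the 3 kidney translatomes. In the forebrain translatome it was at 0.08, 0.12 and 0.16 RPKM, or 13 to 17 reads per library. The groups were 176.8-fold apart in the fit, with a log2 fold change of 7.47 ± 0.16 (SE, adjusted P = 1.1e-13). Genes listed around its signalling, Bmp4, Slit2 and Robo2 among them, followed the same order less fully: of 13, 9 were higher in the kidney translatome and 2 lower. Ret, the receptor, was at 8.60 ± 1.38 RPKM (SD, n = 3) in kidney and 0.91 ± 0.12 in forebrain, a log2 fold change of 3.01. Gfra1, the co-receptor, rose by 2.18 and Wnt11, a bud tip gene, by 5.97 on the log2 scale. Sox8 and Sox9, which neural cells also express, were the 2 lower genes (-1.92 and -1.18).

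Six2 reached 93.0, 87.7 and 74.6 RPKM in the kidney transcriptome and 127, 117 and 99.9 RPKM in the kidney translatome. The forebrain translatome held 1.37, 1.51 and 1.21 RPKM, so its lowest kidney sample was far above the highest forebrain sample. The fitted translatome difference was 73.0-fold (log2 6.19 ± 0.11, adjusted P = 1.6e-14). Cited1 was at 43.8, 52.9 and 39.4 RPKM in the kidney translatome against 3.29, 3.78 and 4.13 in the forebrain translatome. That was a 10.6-fold difference (log2 3.41 ± 0.13). Eya1 was at 38.6, 41.7 and 40.4 RPKM against 2.85, 3.09 and 2.46, a 12.5-fold difference (log2 3.65 ± 0.07). These 3 cap genes therefore kept a measurable forebrain level of 1 to 4 RPKM.

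Wt1 separated the organs most in the translatome: 86.8, 86.3 and 89.5 RPKM in the kidney against 5, 2 and 2 reads in the forebrain libraries, or 0.02 to 0.04 RPKM. Its log2 fold change of 11.39 ± 0.11 rests on those 9 forebrain reads. Pax2 was at 71.2, 73.8 and 75.3 RPKM against 10 to 13 forebrain reads per library, and Pax8 at 32.8, 35.9 and 36.7 RPKM against 3 to 6 reads. Their log2 fold changes were 9.15 ± 0.10 and 9.38 ± 0.14. The forebrain counts of these 3 factors are too low to order the forebrain groups among themselves.

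Osr1 and Sall1 showed the smallest organ differences of the members, and Meox1 a larger one. Osr1 was at 16.0, 17.9 and 15.2 RPKM in the kidney translatome against 3.67, 3.96 and 3.51 in the forebrain, a 3.84-fold difference (log2 1.94 ± 0.10). Sall1 was at 65.7, 62.7 and 64.0 RPKM against 13.7, 14.4 and 13.5, a 4.02-fold difference (log2 2.01 ± 0.05). Meox1 was at 24.5, 21.2 and 17.3 RPKM against 0.66, 1.08 and 0.78, a 22.03-fold difference (log2 4.46 ± 0.17). In total RNA the same 3 genes differed by 5.72-fold, 2.91-fold and 43.2-fold.

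The other nephron progenitor genes were less uniform. Of 23 listed, 18 were higher in the kidney translatome and 1 lower, with a median log2 fold change of 1.84. Hoxa11, Hoxc11, Hoxd11 and Fgf20 had no read in any forebrain translatome library and stood at 55.5, 6.39, 42.0 and 2.10 RPKM in the kidney. Itga8, the integrin subunit that the cap mesenchyme needs, rose by 4.64 and Bmp7, a growth factor of the cap, by 1.72 on the log2 scale. Dpf3 was the gene called lower (-1.46), and Mycn (-0.02) and Spock2 (-0.04) were not called. Of 10 genes of early nephrons, 8 were higher and 2 lower, and all 5 podocyte genes and 5 of 6 stromal genes were higher in kidney.

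Within the kidney, ribosome-bound and total RNA differed by at most 1.52-fold in the fit for any member. In the unpaired fit, Pax8, Sall1 and Pax2 were lower in the translatome, and no member was called higher. Over all 19332 rows, 14.9% were called higher and 15.8% lower, beside 3 of 10 members lower and 0 of 10 higher. Each translatome came from the same tissue sample as a transcriptome, but these calls did not use that pairing. With the tissue sample as a block, Six2, Meox1 and Eya1 were called higher, as given below.

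Pax8 fell from 51.2, 57.5 and 52.0 RPKM in total RNA to 32.8, 35.9 and 36.7 RPKM on ribosomes, and the groups did not overlap. The ribosome-bound to total ratio within the tissue samples was 0.64, 0.62 and 0.71, and the fitted log2 fold change -0.61 ± 0.06 (adjusted P = 7.8e-06). Sall1 fell from 88.7, 87.8 and 87.7 RPKM to 65.7, 62.7 and 64.0, with ratios of 0.74, 0.71 and 0.73 and a log2 fold change of -0.46 ± 0.04 (adjusted P = 7.8e-06). Both genes were thus low by a similar ratio in all 3 samples. Pax2 fell from 90.6, 91.9 and 88.8 RPKM to 71.2, 73.8 and 75.3, with a log2 fold change of -0.30 ± 0.04 (adjusted P = 1e-04). Against the only kidney translatome sequenced in the run of the transcriptomes (sample 3), Sall1 (-0.45, adjusted P = 3.6e-04) and Pax8 (-0.54, adjusted P = 7.1e-04) were still called, and Pax2 was not (-0.26, adjusted P = 0.0023). The lone translatome is assumed to vary like the others. Pax2 also lost its call in a single fit of all 21 samples (-0.29, adjusted P = 0.052).

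Six2 and Meox1 lay on the other side. The ratio of ribosome-bound to total Six2 was 1.36, 1.34 and 1.34 in the 3 tissue samples, and that of Meox1 1.52, 1.49 and 1.37. Their unpaired log2 fold changes of 0.43 ± 0.09 and 0.55 ± 0.12 missed the threshold (adjusted P = 0.0029 and 0.0033). With the tissue sample as a block both were called higher (adjusted P = 1.2e-27 and 4.5e-26), as was Eya1 (0.16, adjusted P = 8.9e-05). The P values of the blocked fit are very small because each row took the common trend of the spread. The share of all rows called in it is not reported here. Within 1 run none of the 3 was called, with values of 0.24 (adjusted P = 0.13) for Six2, 0.27 (adjusted P = 0.15) for Meox1 and 0.17 (adjusted P = 0.02) for Eya1. Cited1, Osr1, Wt1 and Gdnf had ratios between 0.94 and 1.18 in every tissue sample.

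**Figure D2:**
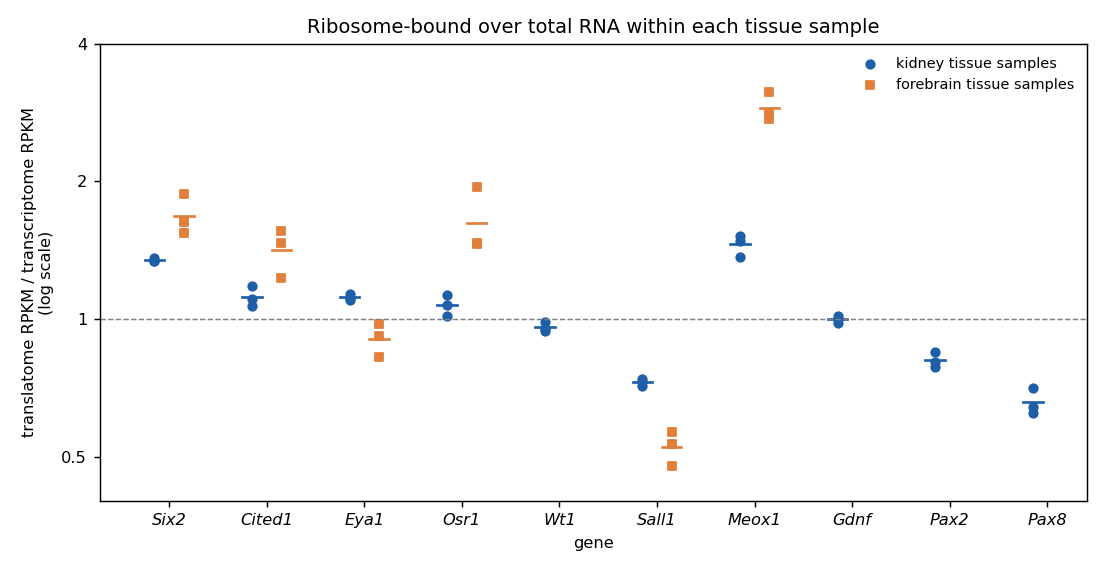
Ratio of ribosome-bound to total RPKM (log axis) for each gene in the 3 kidney (circles) and 3 forebrain (squares) tissue samples, with short lines at the mean and a dashed line at 1; Wt1, Gdnf, Pax2 and Pax8 have too few forebrain reads to be drawn for that organ. Six2, Cited1, Osr1 and Meox1 lie above 1 and Sall1 below 1 in all 6 tissue samples.

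The neighbouring cell programs gave a reference. Among the 23 other progenitor genes, 2 were higher on kidney ribosomes (Hoxa11 by 0.55 and Gas1 by 0.65) and 2 lower (Itga8, -0.32, and Spock2, -0.48). Of the 10 early nephron genes, none was higher and 4 were lower, among them Lhx1 (-0.49), Jag1 (-0.53) and Cdh6 (-0.60). Of 7 endothelial genes, 5 were higher on ribosomes, and the 5 globin and other red cell genes tested were all lower. Blood RNA thus differed between the groups compared, at 833 to 1100 summed RPKM in total RNA and 103 to 193 in ribosome-bound RNA. Its part in the members' values was not tested.

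In the forebrain the same step raised Six2, Osr1 and Meox1 and lowered Sall1, at low levels. There 18.6% of 19442 rows were called higher and 18.5% lower, and 3 and 1 of the 10 members. Sall1 went from 28.8, 25.5 and 25.4 RPKM to 13.7, 14.4 and 13.5, a log2 fold change of -0.91 ± 0.06 (adjusted P = 8.5e-09). Six2 rose by 0.77 ± 0.16 (adjusted P = 7.6e-04), Osr1 by 0.69 ± 0.13 and Meox1 by 1.55 ± 0.23, the last from 0.24, 0.34 and 0.27 RPKM. Against the 1 transcriptome sequenced with the translatomes, Osr1 (0.99, adjusted P = 6e-04) and Sall1 (-1.04) were still called and Six2 (0.91, adjusted P = 0.007) and Meox1 were not. Meox1 was the 1 member called higher without transcriptome replicate 1 or without translatome replicate 1 or 2. With the tissue sample as a block, Cited1 was called too (0.52, adjusted P = 4.1e-04), a fit whose share of all rows called is not reported here.

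Whether the ribosome-bound to total ratio differed between the organs was tested in a joint fit of the 12 samples, in which 6.47% of 20102 rows were called in either direction. Sall1 was the 1 member called: its ratio was higher in kidney than in forebrain by 0.47 ± 0.07 on the log2 scale (adjusted P = 2.7e-04). The call was lost without kidney transcriptome replicate 2 (adjusted P = 0.0011) and in a single fit of all 21 samples (adjusted P = 0.013). With the tissue sample as a block, Osr1 (-0.59, adjusted P = 7.8e-05) and Meox1 (-1.01, adjusted P = 2.2e-05) were called as well, both with the higher ratio in forebrain. The share of all rows called in the blocked fit is not reported here.

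All 10 genes were lower in the kidney EC translatome than in the whole kidney translatome, yet none was gone from it. Over 18939 rows, 16.7% were called higher and 15.0% lower, against 10 of 10 members lower, with a median log2 fold change of -1.92 beside -0.04 over all rows. No member's samples overlapped between the groups, though the share of all rows without overlap is not reported here. The level left ran from 7.92% of the whole-kidney RPKM for Cited1 to 33.2% for Meox1. RPKM percentages run below the fitted folds here, because scaling to total reads alone moves the median of all rows by -0.37 on the log2 scale. From the fits, the same percentages ran from 10.2% (Cited1) to 42.5% (Meox1), in the same order at both ends.

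**Figure D3:**
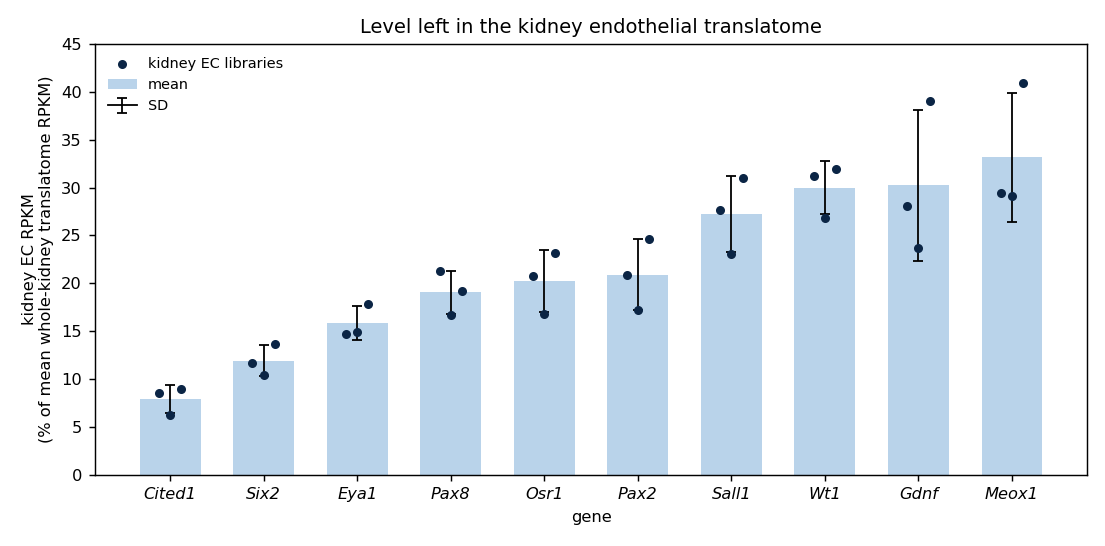
RPKM of each gene in the 3 kidney EC libraries as a percentage of the mean RPKM in the whole kidney translatome (bars, mean; whiskers, SD over the 3 EC libraries; points, libraries). Cited1, Six2 and Eya1 have the lowest percentages (7.92%, 11.9% and 15.9%) and Wt1, Gdnf and Meox1 the highest (30.0%, 30.3% and 33.2%).

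Cited1 was at 3.90, 2.83 and 4.06 RPKM in kidney EC against 39.4 to 52.9 in the whole kidney, 9.77-fold lower in the fit (log2 -3.29 ± 0.15, adjusted P = 1.8e-08). Six2 was at 13.4, 12.0 and 15.6 RPKM, 6.54-fold lower (log2 -2.71 ± 0.11, adjusted P = 8.4e-09). Eya1 was at 5.93, 6.02 and 7.20 RPKM, 4.94-fold lower (log2 -2.30 ± 0.08). These 3 cap genes were the furthest below the whole organ. The other cap genes tested gave a wide range around them: of 23, 20 were lower and 1 higher, and the median percentage of the 22 with at least 1 RPKM in the whole kidney was 19.3%. In their means, Dapl1 (5.49%) was below Cited1, and Fgf20 (9.34%), Hoxc11 (9.56%), Uncx (10.8%) and Crym (11.5%) lay between Cited1 and Six2. The library ranges of Dapl1, Fgf20, Hoxc11, Uncx and Crym each overlapped that of Cited1 (6.24% to 8.94%), so their order against it is not resolved. Mycn (56.5%) and Itga8 (43.9%) stayed higher, and Lin28b, an RNA-binding protein, rose (196%).

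Pax8 was at 7.46, 5.87 and 6.76 RPKM in kidney EC (19.1%), Osr1 at 3.39, 2.75 and 3.80 (20.3%) and Pax2 at 15.3, 12.6 and 18.1 (20.9%). Their log2 fold changes were -2.03 ± 0.09, -1.94 ± 0.13 and -1.90 ± 0.11. Sall1 was at 17.7, 14.8 and 19.9 RPKM (27.2%; log2 -1.52 ± 0.10). The ranges of Pax8, Osr1 and Pax2 overlap, so their order is not resolved, while Sall1 was above all 3 in each EC library.

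Wt1, Gdnf and Meox1 kept about 30% or more. Wt1 was at 27.3, 23.5 and 28.0 RPKM, the highest member in kidney EC (log2 -1.38 ± 0.08, adjusted P = 6.8e-08). Gdnf was at 6.62, 5.59 and 9.21 RPKM (log2 -1.36 ± 0.16) and Meox1 at 6.17, 6.11 and 8.59 (log2 -1.23 ± 0.16, adjusted P = 4.8e-05). Replicate 3 was the highest of the kidney EC libraries for every member but Pax8, whose highest value was in replicate 1.

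Several gene lists of the cell types around the cap had similar medians, but not similar ranges. The stromal genes kept a median of 30.0% (5 of 6 called lower) and ran from 18.9% to 35.2%. The early nephron genes kept a median of 32.2% (7 of 10 lower, 1 higher) and ran from 13.6% to 429%. Irx3 was at 429%, Dll1 at 99.5% and Jag1 at 77.9%, so the median does not describe every gene of that list. Of the 13 genes listed around Gdnf signalling, Bmp4, Slit2 and Robo2 among them, 12 were called lower. Their median was 29.1% over the 12 with at least 1 RPKM in the whole kidney, with Ret at 17.8% and Gfra1 at 16.0%. Podocyte genes differed: 4 of 5 were higher in kidney EC, among them Nphs1 at 241% and Synpo at 197%, and Tcf21, which stromal cells also express, was lower (23.7%). Wt1, a gene of podocytes and of the cap, is thus beside genes that moved up and genes that moved down, and the part of either cell type in its level was not tested. The endothelial genes rose to a median of 595% of the whole kidney level.

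The forebrain gave the opposite picture for 2 members. Osr1 and Meox1 were higher in the forebrain EC translatome than in the whole forebrain translatome, while Cited1 and Sall1 were lower; 24.8% of 19100 rows were called higher and 21.4% lower. Meox1 was at 13.1, 11.9 and 10.7 RPKM in forebrain EC against 0.66, 1.08 and 0.78 in the whole forebrain, 17.6-fold higher (log2 4.14 ± 0.15, adjusted P = 5.9e-11). Osr1 was at 12.9, 8.14 and 8.37 RPKM against 3.67, 3.96 and 3.51, 3.23-fold higher (log2 1.69 ± 0.16, adjusted P = 6.8e-07). Neither gene's groups overlapped, and the first EC library stood above the others for Osr1. Cited1 fell by 1.57 and Sall1 by 1.24 on the log2 scale. Six2 (-0.05 ± 0.16) and Eya1 (-0.11 ± 0.12) were not called, at 1.00 to 1.18 and 1.85 to 2.29 RPKM in forebrain EC.

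Most but not all listed genes of head mesenchyme and meninges, the coverings of the brain, moved in the same direction as Osr1 and Meox1. Of 9 such genes, 6 were higher in forebrain EC, 3 were not called and none was called lower. Their median log2 fold change was 0.80, beside 4.14 for Meox1 and 1.69 for Osr1. All 7 endothelial genes were higher too, with a median of 4.39. Foxc1 (31.6 ± 2.1 against 5.62 ± 0.79 RPKM, SD, n = 3) and Aldh1a2 (9.99 ± 2.75 against 3.71 ± 0.39) were among the higher genes. In RPKM, Twist1 (88.1%), Crabp2 (90.3%) and Lum (78.4%) had means below the whole forebrain level. The summed level of the 9 genes was 129 to 187 RPKM in forebrain EC and 92.3 to 104 in the whole forebrain. In the Emx1-lineage translatome, 8 of the 9 were lower and the sum was 24.3 to 26.5 RPKM. The 7 endothelial genes were all lower there as well (median log2 fold change -4.01, against -2.19 for the 9 genes). The part of head mesenchyme, meninges and endothelial cells in the Osr1 and Meox1 levels was not tested.

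In the Emx1-lineage, cells of the dorsal telencephalon, Meox1 had nearly disappeared at 0.02, 0.01 and 0.09 RPKM, and Six2 stood at 0.41, 0.37 and 0.40 RPKM. Six2 was 3.29-fold lower than in the whole forebrain translatome (log2 -1.72 ± 0.16, adjusted P = 7.1e-07), and Osr1 1.86-fold lower (log2 -0.90 ± 0.12). Here 9.19% of 19006 rows were called higher and 12.8% lower, with 2 and 3 of the 10 members. Sall1 was the clear gain, at 19.5, 20.8 and 17.9 RPKM against 13.5 to 14.4 (log2 0.54 ± 0.06, adjusted P = 1.8e-06). Eya1 was also called higher (log2 0.46 ± 0.09, adjusted P = 7.9e-04), but lost the call with relative log expression factors (0.45, adjusted P = 0.001), without whole forebrain replicates 1 or 3 and without Emx1-lineage replicates 1 or 2 (adjusted P up to 0.0052). Cited1 was at 2.24 to 2.75 RPKM (log2 -0.52, adjusted P = 0.0081, not called).

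**Figure D4:**
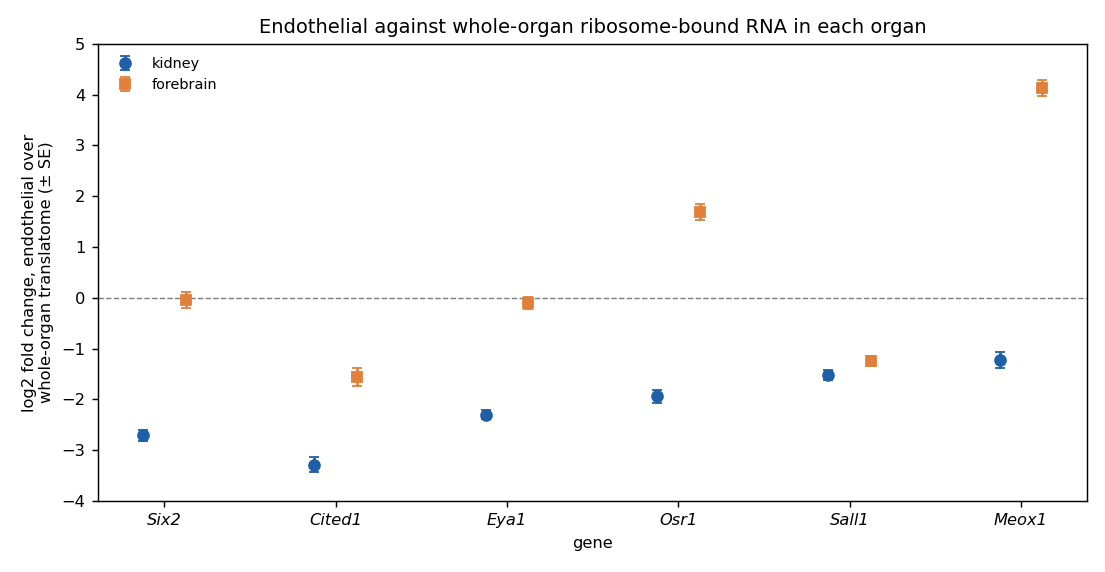
Log2 fold change of the EC translatome over the whole-organ translatome (points; whiskers, SE of the fit on 3 against 3 samples) for the 6 members with at least 47 reads in every sample of these 4 groups, kidney in circles and forebrain in squares. Osr1 (1.69 against -1.94) and Meox1 (4.14 against -1.23) lie on opposite sides of 0 in the organs, and Sall1 (-1.24 and -1.52) on the same side.

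The fold of endothelial over whole-organ RNA was then compared between the organs in a fit of 12 samples, with 25.1% of 19758 rows called in either direction. In all, 6 members were called, each with the lower fold in kidney. Meox1 differed most (log2 -5.40 ± 0.25, adjusted P = 4.3e-11), followed by Osr1 (-3.66 ± 0.23), Pax8 (-2.81 ± 0.60), Six2 (-2.69 ± 0.18), Eya1 (-2.22 ± 0.14) and Cited1 (-1.75 ± 0.24). Pax8 rests on 12 reads in the whole forebrain and 27 in forebrain EC, and its call (adjusted P = 9.8e-04) was lost in most fits that left out a library, among them that without forebrain EC replicate 1 (-2.04, adjusted P = 0.023). The median of all rows was at -0.15 in this fit, which the members' values should be read against. Pax2 was not called (-1.68 ± 0.37, adjusted P = 0.0012), but was with DESeq2 (-1.58, adjusted P = 9e-05), with total counts (-1.73, adjusted P = 0.00073) and without kidney EC replicate 2 (-1.55, adjusted P = 0.00018) or 3 (-1.82, adjusted P = 8.3e-05). Sall1 (-0.30 ± 0.15, adjusted P = 0.13), Gdnf (-0.65) and Wt1 (-0.87) were not called.

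Directly between the EC translatomes, 8 members were higher in kidney EC and 2 in forebrain EC, beside 16.9% and 20.2% of 19235 rows. Six2 was 12.3-fold higher in kidney EC (log2 3.62 ± 0.14), Sall1 3.54-fold, Cited1 3.42-fold and Eya1 2.92-fold. Osr1 was 3.03-fold lower in kidney EC (log2 -1.60 ± 0.19, adjusted P = 3.2e-05). Meox1 was 1.76-fold lower (log2 -0.81 ± 0.14, adjusted P = 5.3e-04), a call that was lost with the sample number as a block (-0.83, adjusted P = 0.0015) and without forebrain EC replicates 1 or 2 or kidney EC replicates 1 or 2. The groups overlapped for no member, again without a share over all rows to set beside it.

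On the RPKM scale, which corrects for length, the order of levels in the kidney translatome was Six2 (114.5 ± 13.5 RPKM, SD, n = 3), Wt1 (87.5), Pax2 (73.5), Sall1 (64.1), Cited1 (45.4), Eya1 (40.2), Pax8 (35.1), Gdnf (23.6), Meox1 (21.0) and Osr1 (16.4). The sample ranges of Cited1 and Eya1 overlapped, as did those of Gdnf and Meox1 and of Meox1 and Osr1. In total RNA Wt1 (91.3) and Pax2 (90.4) led and overlapped, Sall1 (88.1) and Six2 (85.1) followed and overlapped, and Pax8 (53.5) stood above Cited1 (40.8). The Six2 samples (74.6 to 93.0) overlapped those of Wt1, Pax2 and Sall1 in total RNA, and lay above them on ribosomes. In kidney EC, Wt1 (26.3) led, Sall1, Pax2 and Six2 followed between 13.7 and 17.5 with overlapping neighbours, and Cited1 (3.60) and Osr1 (3.31) were lowest. Forebrain EC was led by Meox1 (11.9) and Osr1 (9.80), whose ranges overlapped, and the other forebrain groups by Sall1.

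The rows whose pattern was most like each member were found by Pearson's r of log2(RPKM + 1) over the 21 samples, among 11521 rows with a group mean of at least 5 RPKM. Most of what the points share is the split between organs, so these values are descriptions. Six2 was closest to Smim1 (0.998), Lsp1 (0.998) and Wnt9b (0.997), and Wt1 to Hoxb3 (0.999) and Epn3 (0.999). Pax2 was closest to Hoxd10 (0.9997), with Gdnf also among its 5 (0.9985). Osr1 (Cd83, 0.974) and Sall1 (Dzip1l, 0.986) had the weakest best matches, and Meox1 was closest to Tpm1 (0.991). With a pseudocount of 0.1 in place of 1, 1 of the 5 rows most like Wt1 was still among its 5.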

How the data were processed

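RNA-seq libraries of 7 groups (3 samples each) were analysed. The authors mapped reads to GRCm38 (mm10) with RUM 2.04 and deposited, per refGene row, the read counts without normalization and RPKM values, both from rpkmforgenes. The kit did not mark strand. Groups came from the sample labels. The members and all gene lists were chosen with earlier results of these data known.

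Counts were tested with edgeR 4.0.16 (R 4.3.3; TMM factors, quasi-likelihood F test, rows with at least 1 count, Benjamini-Hochberg adjustment over all rows), on the 6 samples of a comparison or 12 for a difference between organs, and called at an adjusted P under 0.001. The unpaired test was checked on simulated counts for some of the comparisons between groups. The check did not cover the blocked fits, the differences between organs or changes in rows with few reads. The named genes were all members, the called genes of each list or its defining ones, and the 5 rows most like a member. Translatome and transcriptome samples with the same number come from the same tissue per the study's sample sheet (correlation of deviations 0.53 to 0.62 in kidney, 0.51 to 0.59 in forebrain); kidney and forebrain EC samples with the same number also deviated together (0.15 to 0.26). In the blocked kidney fit the P values are very small because each row took the common trend of the spread. Nothing in the labels says whether samples came from separate litters, so P values measure the spread between these samples. Alternatives were DESeq2 1.42.0, other scalings, a count filter, a replicate block, all samples in 1 fit, comparison within 1 sequencing run and leaving out each sample. Single values of some listed genes are not reported here.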

Additional observations from a re-analysis of the deposited data

Results flagged for a closer look

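In all, 7 differences between the organs were past the threshold when the difference itself was tested. The ribosome-bound to total ratio of Sall1 was higher in kidney than in forebrain by 0.4713 on the log2 scale. The fold of endothelial over whole-organ ribosome-bound RNA was lower in kidney for Six2 (-2.688), Cited1 (-1.752), Eya1 (-2.225), Osr1 (-3.66), Meox1 (-5.397) and Pax8 (-2.808). Of these, Osr1 and Meox1 moved in opposite directions in the organs, and Pax8 rests on few forebrain reads. Cre driver, tamoxifen and sequencing run differ between endothelial and whole-organ libraries in both organs, and their part was not tested.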

How the results depend on the processing

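The counts of members called higher or lower were within 1.5 times the reported count in 224 recomputed values and further from it in 26. No member was called higher on kidney ribosomes, but 3 were at an adjusted P under 0.05, 2 with DESeq2, 3 with the replicate block and 1 in a single fit of all samples, and between 0 and 1 when a sample was left out (1, Meox1, without translatome replicate 3). Members lower in kidney EC than forebrain EC numbered 1 instead of 2 with at least 10 counts in 3 samples and with the replicate block, and 1 to 2 when a sample was left out. Members higher in the Emx1-lineage numbered 1 instead of 2 with relative log expression factors, with total counts and with at least 10 counts in 3 samples, and 1 to 2 when a sample was left out. Members higher on forebrain ribosomes numbered 1 instead of 3 within 1 sequencing run and 1 to 3 when a sample was left out. Organ differences in the ribosome-bound to total ratio numbered 3 instead of 1 at an adjusted P under 0.05, 3 with the replicate block, 0 in a single fit of all samples and 0 to 1 when a sample was left out. The paired fit changed no other call of the members than those named here and Cited1 on forebrain ribosomes. The shares of all rows called in these refits are not reported here, and the cause of these changes was not tested.

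Values near 0 changed sign. On kidney ribosomes Cited1 was at -0.043 within 1 run. Gdnf there was at 0.0055 with relative log expression factors, 0.0029 with total counts, 0.0053 with DESeq2, 0.0081 with at least 10 counts in 3 samples, 0.0034 in a single fit, and -0.111 to 0.108 when a sample was left out (0.043 and 0.057 without translatome replicates 1 and 3). Six2 in forebrain EC against the whole forebrain ranged from -0.121 to 0.020 (0.0027 without EC replicate 3). The organ difference of Gdnf ranged from -0.389 to 0.189 (0.176 and 0.050 in 2 further fits) and that of Pax2 from -0.795 to 0.266 (0.012 in another).

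Wt1, Pax2, Pax8 and Gdnf had too few forebrain reads to resolve differences among forebrain groups. Total-count scaling moved the median of all rows by -0.30 in forebrain EC against the whole forebrain and by 0.19 and 0.18 in the organ comparisons; no member turned direction with it except Gdnf above.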
